A study of Sus scrofa with 10 samples.

Results

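GPR17 cells were 211 of the 24940 cells of the 8 fetal libraries (0.846%), each with at least 3 UMIs of GPR17, a G protein-coupled receptor, where a UMI is 1 counted RNA molecule. They were taken from the deposited UMI counts of single cells from pig medial entorhinal cortex (MEC), and the whole series held 28229 cells in 10 libraries. GPR17 lies at chr15:59692992-59702513 on the minus strand of Sscrofa11.1. The libraries came from crossbred pigs at embryonic day 50 (E50, 1 whole-cell library pooled from 3 brains), E60 (3 whole-cell libraries from 1, 1 and 2 brains), E70 (3 whole-cell libraries from 2, 1 and 1 brains and 1 library of isolated nuclei from 1 brain) and adulthood (1 whole-cell and 1 nuclei library from 1 brain each). The numbers of brains are those of the labels, and the study's library table differs from them for E70_1 and E70_3. The labels name no treatment or genetic change, and cells of a library were not treated as replicates.

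Oligodendrocytes wrap axons in myelin and arise from oligodendrocyte precursors (OPCs), which divide and carry the growth factor receptor PDGFRA. A precursor that leaves the cycle passes through a short committed stage in which PDGFRA is lost and GPR17 is made, and GPR17 is lost again before myelin is formed. The committed stage is a narrow one, and GPR17 in these cells has been studied as a brake on the step to myelination.

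The regional genes of the libraries split before any result was drawn. EMX1 and LHX2, transcription factors of the cortex, were at 40.6 and 65.9 UMIs per 1000000 UMIs (CPM) over all cells of E50_1, but at 0.482 and 3.53 CPM in E60_1 and at 0.511 and 1.89 CPM in E60_2. In E60_3 and the 4 E70 libraries EMX1 was between 3.24 and 17.2 CPM and LHX2 between 22.7 and 93.6 CPM. EN2, a transcription factor of the midbrain and hindbrain, was at 24.1 CPM in E50_1, 37.4 CPM in E60_1 and 14 CPM in E60_2, and at 0.735 CPM or less in the other fetal libraries. E60_1 and E60_2 thus stood apart from the cortical label of all libraries, and E50_1 carried both sets of genes. Among the GPR17 cells themselves, E60_1 and E60_2 held 0 EMX1 UMIs and E50_1 held 7, while EN2 gave 9, 9 and 2 UMIs in E50_1, E60_1 and E60_2. Results are therefore given with and without E60_1 and E60_2, and the part of region in them was not tested.

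The GPR17 cells were unevenly spread over the libraries. E50_1 held 56 of 5506 cells (1.02%, exact 95% interval 0.769 to 1.32), E60_1 114 of 8171 (1.40%, 1.15 to 1.67) and E60_2 27 of 3479 (0.776%, 0.512 to 1.13). E60_3 held 1 of 2696 (0.0371%, 0.000939 to 0.206), E70_2 4 of 617 (0.648%, 0.177 to 1.65) and E70_3 9 of 3120 (0.288%, 0.132 to 0.547). No GPR17 cell was found among the 493 cells of E70_1, which allows a share of up to 0.609%, or among the 858 nuclei of E70_nc, which allows up to 0.350%. The 3 libraries with EN2 thus held 197 of the 211 cells (93.4%), and the shares of E60_3 and E70_3 lay below their intervals. These intervals cover counting error only.

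Cells that carried the earlier precursor genes were distributed differently. PDGFRA precursors, defined by 0 UMIs of GPR17, at least 2 of PDGFRA and at least 1 of the lineage factor OLIG1, were 132 cells in all. They made up 0.345%, 0.551% and 0.144% of E50_1, E60_1 and E60_2, which is less than the share of GPR17 cells in each. In E60_3, E70_1, E70_2, E70_3 and E70_nc they made up 0.408%, 2.64%, 2.43%, 0.737% and 0.117%, which is more than the share of GPR17 cells in each. The 2 groups were chosen by their counts, so their proportions are a description.

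**Figure D1:**
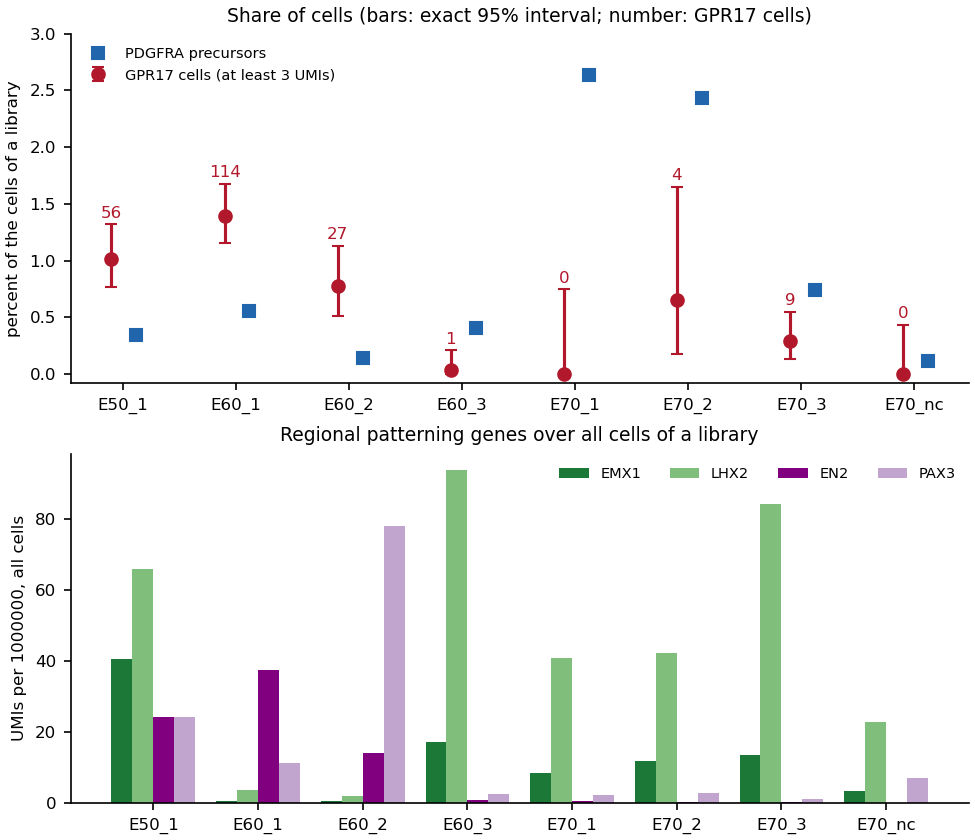
Upper panel: percent of the cells of each fetal library that were GPR17 cells (red, with the exact 95% interval and the number of cells) or PDGFRA precursors (blue). Lower panel: UMIs per 1000000 of 4 regional genes over all cells of the same libraries. GPR17 cells reached 1.02%, 1.40% and 0.776% in E50_1, E60_1 and E60_2, the libraries with EN2 at 14 CPM or more.

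The share of GPR17 cells was compared between E60 and E70, the stages with 3 whole-cell libraries each. GPR17 cells made up 0.736% ± 0.680 (SD, n = 3) of the cells of an E60 library and 0.312% ± 0.325 (SD, n = 3) of those of an E70 library. E70 minus E60 came to -0.424 percentage points, and an exact two-sided permutation test over libraries did not separate this from the spread (p = 0.4, where 0.1 is the smallest p of the design). The groups overlapped, since E60_3 was lower than E70_2 and E70_3. E60_1 and E70_1 were sequenced in 1 pool and differed by -1.40 percentage points, whereas E60_3 and E70_3, of another pool, differed by 0.251. Without E60_1 the difference was -0.0943 percentage points, so most of its size came from that library.

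Most GPR17 cells held few GPR17 molecules. The median was 4 UMIs in E50_1 (3 to 23), 5 in E60_1 (3 to 13), 4 in E60_2 (3 to 15) and 3 in E70_3 (3 to 16). The 4 cells of E70_2 had a median of 3.5 and a highest value of 21, and the cell of E60_3 had 3. Of all 1884 GPR17 UMIs of fetal cells, 1138 (60.4%) were in GPR17 cells, and 826 fetal cells had at least 1. Microglial cells, a type outside the lineage, served as the reference for free RNA. A GPR17 UMI was found in 0.775% of 129 in E50_1, 1.49% of 1141 in E60_1 and 1.59% of 440 in E60_2. Their median depths were 11503, 4893 and 5425 UMIs against 7906.5, 4564.5 and 5156 in GPR17 cells.

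The threshold of 3 UMIs cut through a range of levels. In E50_1, 21 of 21 cells with 2 GPR17 UMIs and 23 of 23 with 3 had a UMI of OLIG1, OLIG2, SOX10 or NKX2-2, the transcription factors of the lineage. In E60_1 the shares were 85.7% of 77 cells with 2 UMIs and 82.8% of 29 cells with 3. Of the cells with 1 GPR17 UMI, 54.5% in E50_1 and 62.7% in E60_1 had such a UMI, and of the cells with 0, 17.4% and 15.8%. BCAS1, a protein of newly forming oligodendrocytes, was at 126 CPM in the E50_1 cells with 2 GPR17 UMIs and 404 CPM in those with 3, and at 1331 and 2070 CPM in E60_1. SOX10 was at 27.9 and 97.1 CPM and NKX2-2 at 62.8 and 118 CPM in the E50_1 cells with 2 and 3 UMIs, and at 76.1 and 95.8 CPM and at 96.9 and 169 CPM in E60_1. The cells just inside the threshold thus had more of these 3 genes than those just outside it, by values without intervals. OLIG1 went from 1435 to 2494 CPM in E50_1 between 2 and 3 UMIs, but stood at 268 and 265 CPM in E60_1.

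The identity of the cells was checked against the genes that mark committed precursors. Of the 211 cells, 190 (90%) had a UMI of OLIG1, OLIG2, SOX10 or NKX2-2. NKX2-2, a homeodomain factor that starts oligodendrocyte maturation (chr17:29275656-29279572), was found in 69.6% of the GPR17 cells of E50_1, 55.3% of E60_1, 63.0% of E60_2 and 33.3% of E70_3, against 1.14% to 1.84% of microglial cells in the first 3. CLDN11, the tight junction protein of myelin (chr13:109075672-109089097), was found in 23.2%, 57.9%, 59.3% and 22.2% of GPR17 cells, against 0.775% to 2.02% of microglial cells. BCAS1 (chr17:54920714-55039470) was found in 78.6%, 94.7%, 85.2% and 66.7%, against 3.86% to 5.87%. All 3 genes lay above their microglial shares in E50_1, E60_1 and E60_2. Among PDGFRA precursors of E50_1 and E60_1, NKX2-2 was found in 42.1% and 22.2% and CLDN11 in 5.26% and 2.22%. BCAS1 was found in 78.9% and 62.2% of them, so in E50_1 its presence did not set GPR17 cells apart from precursors.

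OLIG1, a lineage factor that the rule for GPR17 cells did not use, differed between libraries. It was found in 92.9% of the GPR17 cells of E50_1, 36.8% of E60_1, 33.3% of E60_2 and 100% of E70_3, and in 83.9%, 21.1%, 18.5% and 44.4% with every cell thinned to 2000 UMIs. Its level was 1697, 139, 110 and 362 CPM, highest in E50_1. OLIG2, its neighbour and partner, gave 3 UMIs over all 211 cells. SOX10, the factor that holds the lineage, was found in 57.1%, 43.0%, 51.9% and 33.3% and at 103, 112, 151 and 106 CPM, with no such gap between libraries.

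MBP, the membrane-compacting protein of myelin (chr1:147649516-147685289), was the most often found of the 4 defining genes in microglial cells. It was found in 41.1%, 74.6% and 70.4% of the GPR17 cells of E50_1, E60_1 and E60_2, against 27.9%, 18% and 12.5% of microglial cells. Among PDGFRA precursors of these libraries it was found in 2 of 19, 3 of 45 and 1 of 5 cells. With every cell thinned to 2000 UMIs the shares were 23.2%, 71.9% and 66.7% in GPR17 cells and 5.43%, 7.27% and 4.77% in microglial cells. In E70_3, 2 of 9 GPR17 cells (22.2%) had MBP against 44.0% of 100 microglial cells and 0 of 23 precursors. The share there thus lay below that of microglial cells, and whether the microglial MBP was free RNA was not tested. PDGFRA was still found in 33 of the 56 GPR17 cells of E50_1, 18 of 114 of E60_1, 3 of 27 of E60_2 and 7 of 9 of E70_3. The defining genes of the committed stage thus lay above their shares in microglial cells in E50_1, E60_1 and E60_2. This did not hold for every gene of the lineage. TNS3, SIRT2 and ST18, described below, were found in 89.1%, 76.7% and 50.4% of microglial cells of E50_1. In its GPR17 cells the shares were 78.6%, 64.3% and 14.3%. In E60_1 and E60_2 each was found more often in GPR17 cells. Most GPR17 cells of E50_1 and E70_3 also had a UMI of the precursor gene.

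Markers of other cell types were present in some GPR17 cells. At least 2 UMIs of microglial, vascular or fibroblast markers, or over 5% hemoglobin, were found in 30 of them. Among the cells marked as likely doublets were 12, 2 in E50_1 and 10 in E60_1. The 9 microglial markers summed to 38.0, 371, 596 and 30.2 CPM in the GPR17 cells of E50_1, E60_1, E60_2 and E70_3. The 6 astrocyte markers summed to 158, 827, 781 and 166 CPM, of which AQP4, the astrocyte water channel, gave 478 and 329 CPM in E60_1 and E60_2 and 3.8 and 0 CPM in E50_1 and E70_3. HBB, the beta chain of hemoglobin, stood at 762, 7680.4, 11830.3 and 196 CPM. The 10 neuronal markers summed to 992, 399, 192 and 242 CPM, and STMN2 and DCX, genes of young neurons, were found in 69.6% and 67.9% of the E50_1 cells. Microglial, astrocyte and red cell markers were thus higher in E60_1 and E60_2 and neuronal markers in E50_1, and their part in the results was not tested. Libraries shared 333 cell barcodes, 5 GPR17 cells carried such a barcode, and 0 barcodes were held by 2 GPR17 cells.

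The GPR17 cells differed among themselves in MBP. The median was 0 UMIs in E50_1 (highest 93), 14 in E60_1 (highest 102), 7 in E60_2 (highest 60) and 0 in E70_3 (highest 10). In E50_1, 33 cells had 0 MBP UMIs, 13 had 1 to 9 and 10 had 10 or more. In E60_1 these were 29, 24 and 61 cells, and in E60_2 they were 8, 6 and 13. Cells with 10 or more were thus 17.9% of the GPR17 cells in E50_1, 53.5% in E60_1 and 48.1% in E60_2, with 1, 4 and 0 cells near the cut at 8 to 11 UMIs. The classes are ranges of 1 gene and not cell types, and what follows across them is a description.

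PDGFRA and OLIG1 were lowest where MBP was highest in E50_1, E60_1 and E60_2. In E70_3 the 2 GPR17 cells with MBP also had PDGFRA, as did 5 of the 7 cells without MBP. PDGFRA was found in 72.7%, 69.2% and 0% of the E50_1 cells with 0, 1 to 9 and 10 or more MBP UMIs, in 44.8%, 12.5% and 3.28% of the E60_1 cells and in 37.5%, 0% and 0% of the E60_2 cells. The median depth of the 3 classes was 7376, 9022 and 11399 UMIs in E50_1, 3980, 4011.5 and 4892 UMIs in E60_1 and 5222, 5155.5 and 4915 UMIs in E60_2. The class with the most MBP was thus the deepest in E50_1 and E60_1 and the shallowest in E60_2. OLIG1 went from 2280 to 441 CPM in E50_1 between the lowest and the highest class, from 326 to 69.5 CPM in E60_1 and from 338 to 0 CPM in E60_2. PTPRZ1, a phosphatase of precursors, stood at 883 and 839 CPM in E50_1 and at 1109 and 916 CPM in E60_1, and at 2437 and 754 CPM in E60_2.

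Genes of the forming oligodendrocyte were at their highest with MBP. BCAS1 went from 372 to 3967 CPM between the classes with 0 and with 10 or more MBP UMIs in E50_1, from 471 to 4665 CPM in E60_1 and from 434 to 4802 CPM in E60_2. ENPP6, a choline phosphodiesterase of newly formed oligodendrocytes (chr15:45357805-45441133), had 0 UMIs in the lowest class of the 3 libraries and 356, 698 and 769 CPM in the highest. CLDN11 went from 10.7, 0 and 0 CPM to 992, 2298 and 1872 CPM. CNP, an enzyme of non-compact myelin, went from 46.5, 50.7 and 96.5 CPM to 585, 1652 and 2075 CPM. In the 3 libraries the BCAS1 values of the highest class lay within 3967 to 4802 CPM, a narrower range than the 1228 to 3270 CPM over all GPR17 cells.

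Some transcription factors were also highest with MBP. TCF7L2, the Wnt pathway factor of differentiating oligodendrocytes, went from 175 to 1305 CPM in E50_1, from 203 to 1156 CPM in E60_1 and from 410 to 1190 CPM in E60_2. MYRF, the factor that drives myelin genes, went from 3.57 to 67.8 CPM, from 0 to 159 CPM and from 48.3 to 131 CPM. NKX2-2 and SOX10 had no such order in all 3 libraries. NKX2-2 stood at 125 and 220 CPM in the lowest and highest class of E50_1, at 210 and 165 CPM in E60_1 and at 96.5 and 203 CPM in E60_2, and SOX10 at 89.3 and 170 CPM, 94.2 and 127 CPM, and 169 and 116 CPM. STMN2, a neuronal gene, went the other way in E50_1, from 965 to 76.3 CPM, and in E60_1, from 710 to 84.0 CPM, and stood at 96.5 and 72.5 CPM in E60_2. In E70_3 the only GPR17 cell with 10 MBP UMIs also had BCAS1 at 3395 CPM and ENPP6 at 1111 CPM, values of 1 cell. That cell also had 1 PDGFRA UMI.

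**Figure D2:**
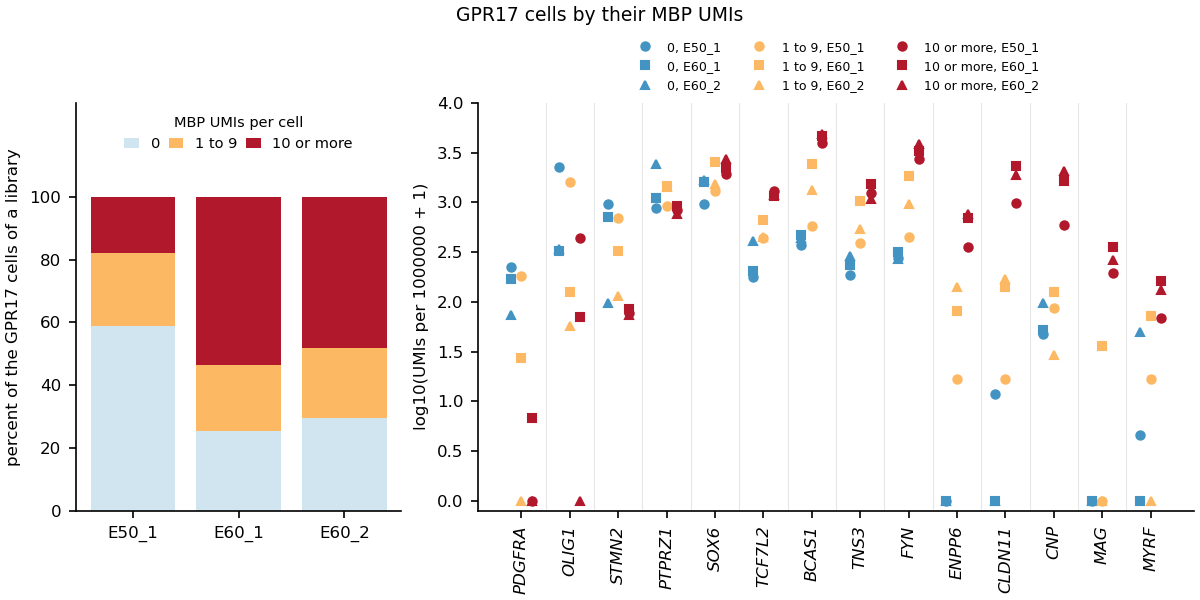
Left: percent of the GPR17 cells of E50_1, E60_1 and E60_2 with 0, 1 to 9 and 10 or more MBP UMIs. Right: summed level of 14 genes in the same classes, as log10 of UMIs per 1000000 plus 1, with symbols for the libraries. PDGFRA and OLIG1 were lower in the class with 10 or more UMIs in each library, and BCAS1, ENPP6, CLDN11 and CNP were higher.

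GPR17 cells were then compared with PDGFRA precursors of the same library. The GPR17 cells were mixed, since 33 of 56 in E50_1 still had PDGFRA and 53.5% in E60_1 had 10 or more MBP UMIs. The comparison is thus between sets chosen by counts and not between pure stages. UMIs were summed per library and cell set and tested with edgeR's quasi-likelihood test with the library as a block and Benjamini-Hochberg adjustment, with a gene called at an adjusted p under 0.05. Only E50_1 (56 against 19 cells) and E60_1 (114 against 45) held 10 cells of each set, which left 1 residual degree of freedom. Of 7284 genes tested, 125 were higher (1.72%) and 76 lower (1.04%) in GPR17 cells, beside 894 genes with an unadjusted p under 0.05. GPR17, PDGFRA and OLIG1 chose the cells and are counted nowhere. With the 4 libraries that held 5 cells of each set, which adds E60_2 and E70_3, 93 of 4306 genes were higher (2.16%) and 76 lower (1.76%). Of the 125 and 93 higher genes 71 were the same, and of the 76 and 76 lower genes 45 were. The number of calls depended on the tool, with 27 higher and 0 lower by DESeq2 (222 at an unadjusted p under 0.05), and on E60_1, without which the wider comparison called 28 higher and 6 lower.

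Genes of the committed stage were among the higher ones. Of 18 tested genes of committed and newly forming oligodendrocytes, 9 were higher (50%, against 1.72% of all genes), 0 were lower and 9 were not called, with a median log2 difference of 1.80 against 0.01 over all genes. The list was drawn up with earlier results of these data known. Over the alternatives that kept the library block, 5 to 13 of its genes were higher. Without E60_1 and E60_2 the genes called from this list were ENPP6, BCAS1, SIRT2, TNS3 and FYN. In E70_3 these values came mostly from 1 of the 9 cells, which held 18 of 18 ENPP6 UMIs, 55 of 62 of BCAS1, 19 of 22 of SIRT2, 29 of 37 of TNS3 and 54 of 74 of FYN. The calls without E60_1 and E60_2 therefore rest, on the side of E70_3, largely on that cell.

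ENPP6 was at 83.6 CPM in the GPR17 cells of E50_1 and 419 CPM in those of E60_1, and at 5.77 and 3.78 CPM in the precursors, values of 1 UMI in each library. In the GPR17 cells of E60_2, E70_2 and E70_3 it was at 397, 350 and 272 CPM. The E70_2 value was 20 UMIs in 2 of 4 cells and the E70_3 value 18 UMIs in 1 cell. The sets did not overlap in these 5 libraries, and the log2 difference was 5.86 ± 0.60 (SE, adjusted p = 1.49e-05). The pooled ratio was 57.4 (exact interval 15.7 to 476), an interval that covers counting error only, as do those of the other pooled ratios. BCAS1 was at 1228 and 3270 CPM in GPR17 cells and at 173 and 170 CPM in precursors, a log2 difference of 3.64 ± 0.36 (SE, adjusted p = 8.42e-06). In E60_2, E70_2 and E70_3 it was at 2713, 1086 and 936 CPM in GPR17 cells and at 36.8, 53.9 and 13.1 CPM in precursors, again without overlap. In E70_2 and E70_3 1 cell held 54 and 55 of the 62 BCAS1 UMIs that each library gave, and the 7 cells of E70_3 with 0 MBP UMIs were at 153 CPM. The GPR17 cell of E60_3 had 57.8 CPM of BCAS1, which is 1 UMI, and 0 of ENPP6.

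The other called members were enzymes and adaptors of the growing process. SIRT2, a tubulin deacetylase of oligodendrocytes, was at 418 and 776 CPM against 63.4 and 75.5 CPM (log2 difference 3.13 ± 0.34 SE, adjusted p = 1.9e-05). FYN, the kinase that links axon contact to local MBP translation, was at 872 and 2336 CPM against 242 and 238 CPM (2.66 ± 0.34 SE, adjusted p = 0.000128). TNS3, an integrin adaptor, was at 469 and 1125 CPM against 138 and 121 CPM (2.59 ± 0.35 SE, adjusted p = 0.000248). These genes were higher in GPR17 cells of both libraries, with the higher values in E60_1. RAB33A, TMEM163, FRMD4A and EPB41L2 were higher by 3.36, 2.61, 2.05 and 1.64 on the log2 scale. BMP4, a secreted growth factor often used as a marker of the stage, was not called, with 58.9 and 30.2 CPM in GPR17 cells and 40.4 and 3.78 CPM in precursors (1.23 ± 0.57 SE, adjusted p = 0.38).

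Myelin genes were the other large group. Of 11 tested genes of myelin and late oligodendrocytes, 6 were higher (54.5%, against 1.72% of all genes) and 0 lower, with a median log2 difference of 2.91. Over the alternatives that kept the library block, 2 to 8 were higher. MBP was at 855 CPM in the GPR17 cells of E50_1, 4722 CPM in E60_1, 3377 CPM in E60_2, 298 CPM in E70_2, 166 CPM in E70_3 and 0 in the cell of E60_3. In precursors it was between 0 and 36.8 CPM in each of 7 libraries. The log2 difference was 7.43 ± 0.55 (SE, adjusted p = 1.56e-07) in E50_1 and E60_1 and 5.51 ± 0.52 (SE, adjusted p = 0.000596) in E50_1 and E70_3 alone. Of the MBP UMIs, 15 of 17 in E70_2 and 10 of 11 in E70_3 were in 1 cell, so the E70 values are those of single cells.

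CLDN11 was at 232, 1357, 925 and 60.4 CPM in the GPR17 cells of E50_1, E60_1, E60_2 and E70_3, at 0 in the 5 cells of E60_3 and E70_2, and at 7.47 CPM or less in precursors. Its log2 difference was 7.51 ± 0.58 (SE, adjusted p = 2.31e-07), and the pooled ratio was 182 (exact interval 50.2 to 1503) over 2 UMIs in the precursors. CNP was at 177 and 991 CPM against 69.2 and 71.7 CPM (2.91 ± 0.44 SE, adjusted p = 0.000904). NFASC, the adhesion protein of the node of Ranvier, was at 709 and 2827 CPM against 254 and 117 CPM (3.08 ± 0.49 SE, adjusted p = 0.00144). The 4 genes were higher in GPR17 cells of both libraries, and MBP, CLDN11 and NFASC were also called without E60_1 and E60_2, where the same E70_3 cell held 3 of 4 CLDN11 and 14 of 27 NFASC UMIs.

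Late myelin proteins were present at low levels. MAG, the adhesion protein at the axon side of myelin, gave 150 UMIs in the GPR17 cells of E50_1 and E60_1 and 0 in the precursors, at least 19.5-fold higher with 3 UMIs over the group as the floor. It was at 43.7, 213, 123 and 0 CPM in the GPR17 cells of E50_1, E60_1, E60_2 and E70_3. PPP1R14A, a phosphatase inhibitor of oligodendrocytes, gave 71 against 0 UMIs, at least 9.24-fold higher. MYRF gave 74 against 0 UMIs, at least 9.63-fold higher, and was below the filter for the test. MOG, a surface protein of mature myelin, gave 15 UMIs against 1, a ratio of 5.86 (exact interval 0.901 to 247).

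Adult oligodendrocytes, taken as cells with MBP and MAG or MOG and fewer than 3 GPR17 UMIs, gave a later reference for the same genes, in other libraries and without a test. There were 338 of them in the adult whole-cell library and 155 among the adult nuclei, and the genes that chose them are not compared. BCAS1 was at 180 and 293 CPM in the adult whole cells and nuclei, below the 936 to 3270 CPM of the GPR17 cells of the 4 libraries with at least 9 of them. ENPP6 was at 38.8 and 90.1 CPM, and TCF7L2 at 143 and 169 CPM against 453 to 842 CPM in those 4 libraries. The lowest values, 936 and 453 CPM, were those of E70_3, where 1 cell held 55 BCAS1 and 20 TCF7L2 UMIs. The 7 cells of E70_3 with 0 MBP UMIs were at 153 CPM of BCAS1 and 131 CPM of TCF7L2, below the adult values.

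**Figure D3:**
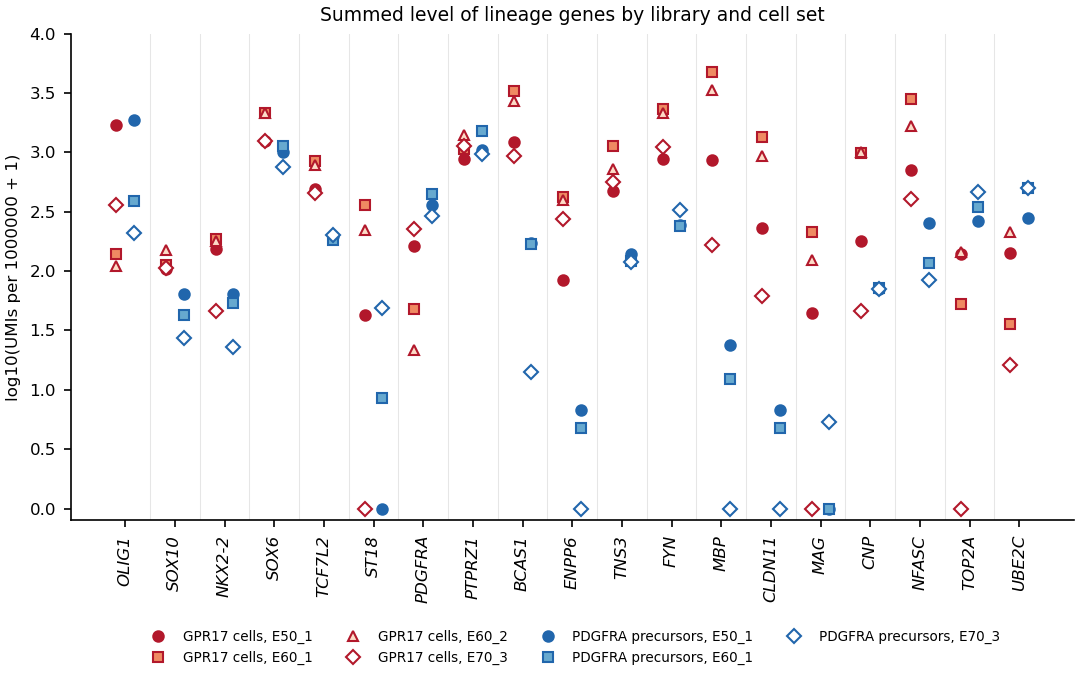
Summed level of 19 genes in the GPR17 cells (red) of E50_1, E60_1, E60_2 and E70_3 and in the PDGFRA precursors (blue) of E50_1, E60_1 and E70_3, as log10 of UMIs per 1000000 plus 1, with a symbol for each library. MBP, CLDN11, ENPP6 and BCAS1 did not overlap between the sets, whereas PTPRZ1 did. PDGFRA and OLIG1 chose the precursors and are shown without comparison.

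Of 28 tested transcription factors of the lineage, 4 were higher (14.3%, against 1.72% of all genes) and 0 lower, with a median log2 difference of 0.05. In the same libraries DESeq2 called 2 higher and edgeR with RLE size factors 1. Without E60_1 and E60_2, 0 of 18 were called, with 3 higher and 2 lower at an unadjusted p under 0.05. NKX2-2 was at 152 CPM in E50_1, 186 CPM in E60_1, 178 CPM in E60_2, 57.8 CPM (1 UMI) in E60_3, 105 CPM in E70_2 and 45.3 CPM (3 UMIs) in E70_3 in GPR17 cells, and between 7.21 and 63.4 CPM in precursors of 7 libraries. It was higher within each of these 6 libraries, which held both sets, and by 1.60 ± 0.34 on the log2 scale in E50_1 and E60_1 (SE, adjusted p = 0.014). TCF7L2 was at 492 and 842 CPM against 196 and 181 CPM (1.84 ± 0.31 SE, adjusted p = 0.00239).

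ST18, a zinc finger factor of differentiating oligodendrocytes, was at 41.8 and 357 CPM against 0 and 7.55 CPM (5.61 ± 0.59 SE, adjusted p = 1.88e-05), and had 0 UMIs in the 9 GPR17 cells of E70_3, where 3 UMIs are 45.3 CPM and the precursors had 48.2 CPM. ZNF488, a partner of OLIG factors, was at 83.6 and 107 CPM against 23.1 and 0 CPM (3.36 ± 0.66 SE, adjusted p = 0.00769). Both were thus higher in E50_1 and E60_1, and no difference in ST18 was detectable in E70_3. SOX10, the main factor of the lineage, was at 103 and 112 CPM against 63.4 and 41.5 CPM and was not called (1.12 ± 0.37 SE, adjusted p = 0.14). SOX6, a factor of precursors, was at 1247 and 2135 CPM against 1015 and 1125 CPM and was not called there (adjusted p = 0.29), but was higher in the 4 libraries with 5 cells (0.83 ± 0.20 SE, adjusted p = 0.0279).

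Precursor genes other than PDGFRA were called in both directions. Of 30 tested genes of the precursor surface and matrix, 4 were higher (13.3%, against 1.72% of all genes) and 1 lower (3.33%, against 1.04%). The median log2 difference was -0.05. In the same libraries DESeq2 called 2 higher and 0 lower, and edgeR with RLE size factors 1 and 0. Without E60_1 and E60_2, 0 of 29 were called, with 8 higher and 1 lower at an unadjusted p under 0.05. PTPRZ1 was at 884 and 1063 CPM in GPR17 cells against 1056 and 1510.2 CPM, and VCAN, a matrix proteoglycan, at 291 and 275 CPM against 202 and 325 CPM. Neither was called (adjusted p = 0.67 and 0.91). EGFR, the epidermal growth factor receptor, was at 15.2 and 18.4 CPM against 92.3 and 56.6 CPM and was the lower gene (log2 difference -2.03 ± 0.46 SE, adjusted p = 0.0197). FGFR2, a fibroblast growth factor receptor, was at 38.0 and 226 CPM against 5.77 and 7.55 CPM (4.40 ± 0.58 SE, adjusted p = 0.000183), but at 45.3 against 56.9 CPM in E70_3. TNR, a tenascin of the matrix around axons, was at 295 and 503 CPM against 104 and 60.4 CPM (2.35 ± 0.37 SE, adjusted p = 0.00118). MEGF11 and BCAN were higher by 1.41 and 1.14 on the log2 scale.

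Signalling genes around the receptor held no call, and the test had little power for small changes. GPR17 couples to inhibitory G proteins and is related to the receptors for cysteinyl leukotrienes and for nucleotides. Of 27 tested genes of its relatives, ligand enzymes and downstream signalling, 0 were called by edgeR in E50_1 and E60_1 (lowest adjusted p = 0.42), 0 had an unadjusted p under 0.05, and DESeq2 called 0. At the 1.72% and 1.04% called over all genes less than 1 call would fall in a list of this size, and on simulated counts 9 of 86 changes of 2-fold were recovered. In the 4 libraries 0 of 21 were called by edgeR and 1 had an unadjusted p under 0.05. The G protein subunits GNAO1 and GNAI3 stood at 110 and 138 CPM and at 87.4 and 166 CPM in GPR17 cells, against 98.1 and 64.2 CPM and 69.2 and 94.4 CPM in precursors. Among the relatives, CYSLTR1 gave 10 UMIs, CYSLTR2 3 and P2RY12 22 over all 211 cells. P2RX7, an ATP-gated channel, gave 98 UMIs and was at 101 and 36.9 CPM in E50_1 and E60_1 against 75 and 41.5 CPM in precursors. ALOX5, the enzyme that starts leukotriene synthesis, gave 2 UMIs over all 211 cells.

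Replication and mitosis genes were lower in GPR17 cells. Of 27 tested, 11 were lower (40.7%, against 1.04% of all genes) and 0 higher, 26 had a negative log2 difference, and the median was -1.28. HMGB2, a chromatin protein of dividing cells, was at 323 CPM in E50_1 and 210 CPM in E60_1 against 571 and 706 CPM in precursors (-1.26 ± 0.29 SE, adjusted p = 0.0242), and at 288 against 920 CPM in E60_2 and 45.3 against 924 CPM in E70_3. CENPF, a kinetochore protein, was at 175 and 26.8 CPM against 352 and 245 CPM (-1.84 ± 0.39 SE, adjusted p = 0.0122). CDK1, the kinase that starts mitosis, was at 39.9 and 35.2 CPM against 127 and 159 CPM (-1.90 ± 0.34 SE, adjusted p = 0.00437). In these libraries each of the 3 was lower in GPR17 cells, with a ratio further from 1 in E60_1. The call rested on E60_1 and on the tool. In the 4 libraries 9 of 15 were lower, and 1 without E60_1. Without E60_1 and E60_2, 0 of 19 were called, with 11 lower at an unadjusted p under 0.05. In E50_1 and E60_1, 0 were called by DESeq2 (11 lower at an unadjusted p under 0.05) and 0 with RLE size factors (22 lower at an unadjusted p under 0.05, as with the main scaling, and a median of -1.29). BTG1, an antiproliferative gene, was higher by 1.49 ± 0.36 on the log2 scale (SE, adjusted p = 0.029). It was the only call among 14 cyclins D, kinase inhibitors and related genes (7.14%, against 1.72% of all genes higher).

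The 12 largest increases held, beside MAG, PPP1R14A, CLDN11, MBP, ENPP6, ST18 and FGFR2, 5 genes outside the lists. CDCP1, a transmembrane glycoprotein, gave 190 UMIs against 0 and was at least 24.7-fold higher. SGK2, a serine/threonine kinase, was at 64.6 and 195 CPM against 0 and 3.78 CPM, a pooled ratio of 58.6 over 1 UMI (exact interval 10.4 to 2328). ACAN, the matrix proteoglycan aggrecan, was at 32.3 and 75.5 CPM, a ratio of 24.2 over 1 UMI (4.19 to 971). ABCA2, a lipid transporter of oligodendrocytes, was at 26.6 and 121 CPM, a ratio of 16.8 over 2 UMIs (4.51 to 141). MAP6D1, a microtubule protein, was at 163 and 253 CPM against 17.3 and 11.3 CPM (3.96 ± 0.46 SE, adjusted p = 4.46e-05).

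The 12 largest decreases held UBE2C, KIF11 and CDK1 of the replication and mitosis list. They also held CENPN, NEK2, NDE1 and ZWILCH, genes outside that list that act in mitosis, and the log2 differences of the 7 genes lay between -2.46 and -1.90. AGBL2, WDPCP and DNAH9, genes of cilia and their tubulin, were at -2.62, -1.93 and -1.90 on the log2 scale, and NUP62CL at -2.26. DNAH9 was at 22.8 and 25.2 CPM in GPR17 cells against 28.8 and 162 CPM in precursors, so its difference was carried by E60_1. EGFR completed the 12.

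**Figure D4:**
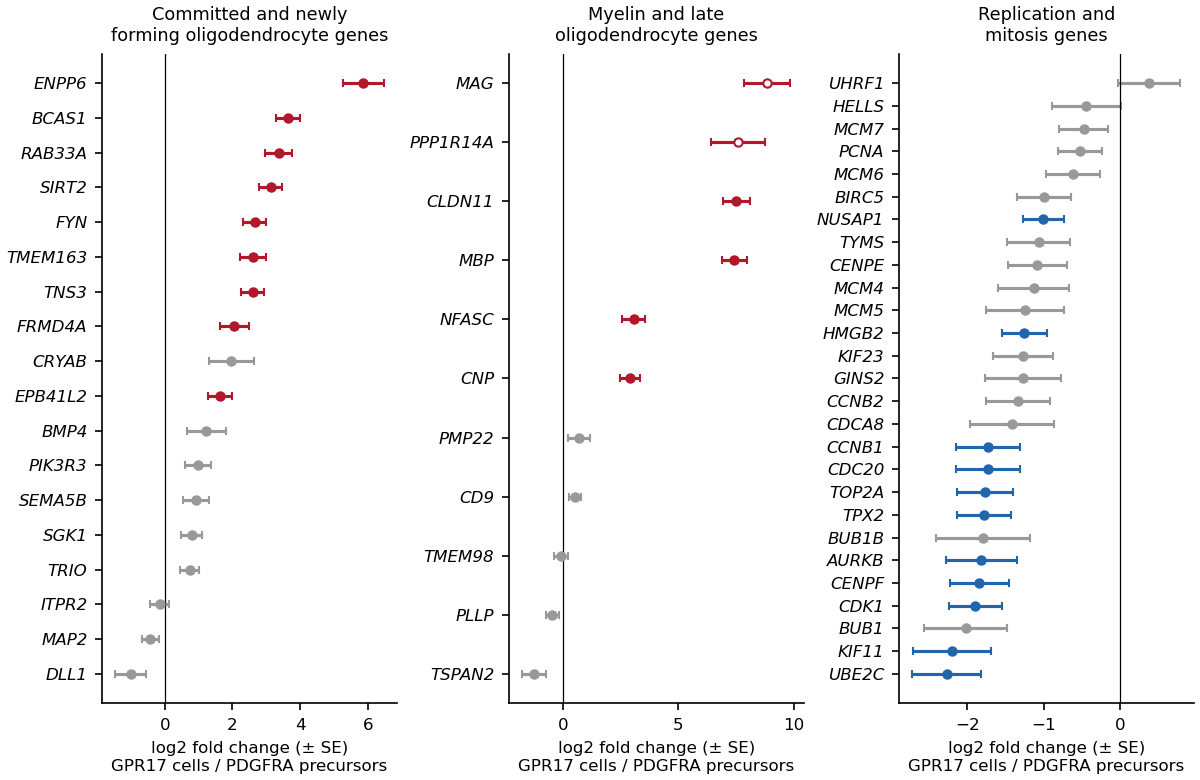
Log2 difference (± SE) between GPR17 cells and PDGFRA precursors in E50_1 and E60_1 for the tested genes of 3 lists, with red for genes called higher, blue for genes called lower and grey for genes not called. White symbols mark genes with 0 UMIs in the precursors, whose fitted value depends on the prior count. ENPP6 led the first list at 5.86, and 26 of the 27 replication and mitosis genes lay below 0.

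Of 22 tested genes of glycosphingolipid and fatty acid synthesis, 3 were higher (13.6%, against 1.72% of all genes) and 0 lower. UGT8, the enzyme that makes the galactolipid of myelin, was at 179 and 565 CPM against 98.1 and 41.5 CPM (2.41 ± 0.47 SE, adjusted p = 0.00759). The other calls were ELOVL7 and GAL3ST1, named here after their values were seen, at 3.29 and 1.80 on the log2 scale. HMGCS1, an early enzyme of cholesterol synthesis, stood at 251 and 409 CPM against 213 and 415 CPM.

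Of 41 cytoskeletal genes 5 were higher (12.2%, against 1.72% of all genes) and 0 lower, with a median log2 difference of 0.20. DYNLL1, a light chain of the dynein motor, was at 1081 and 2978 CPM against 323 and 502 CPM (2.22 ± 0.30 SE, adjusted p = 0.000219). TUBB2B and STMN1, tubulin and a tubulin-binding protein of young neural cells, were not called, at -0.54 each. Of 37 guidance and adhesion genes 6 were higher (16.2%, against 1.72%) and 0 lower, while the median was -0.29. SEMA6D, a semaphorin, was at 498 and 941 CPM against 213 and 310 CPM (1.47 ± 0.28 SE, adjusted p = 0.00721), and SEMA5A at 344 and 713 CPM against 179 and 75.5 CPM (2.11 ± 0.41 SE, adjusted p = 0.00708). In the 4 libraries 5 were higher and 2 lower. Without E60_1 and E60_2, edgeR called 0 genes of the lipid, cytoskeletal and guidance lists, while 3, 3 and 6 were higher at an unadjusted p under 0.05. In E50_1 and E60_1 the calls of these lists also depended on the tool and the scaling. DESeq2 called 0, 2 and 1 genes higher (3, 4 and 7 at an unadjusted p under 0.05), and edgeR with RLE size factors 0, 1 and 0 (4, 10 and 9 at an unadjusted p under 0.05).

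The remaining lists held few calls, and counts of 1 or 2 genes are not read as a result about a list. Of 33 channel and transporter genes 2 were higher (6.06%, against 1.72% of all genes), 1 of them TMEM163, a zinc transporter. GRIA4, a glutamate receptor subunit, stood at 709 and 657 CPM against 721 and 736 CPM. Of 14 other G protein-coupled receptors 1 was lower (7.14%, against 1.04% of all genes). It was GRM5, a metabotropic glutamate receptor, at 238 and 201 CPM against 450 and 464 CPM (-1.03 ± 0.27 SE, adjusted p = 0.0478). Of 33 Wnt, BMP, Notch and growth factor genes 1 was higher (3.03%, against 1.72% of all genes). It was TFEB, a lysosomal factor named here after its value was seen, with 28.5 and 43.6 CPM against 0. Of 5 tested regional patterning genes 0 were called by edgeR or DESeq2 and 2 were lower by edgeR at an unadjusted p under 0.05. These were MEIS1 and MEIS2, homeodomain factors (adjusted p = 0.0632 and 0.0975), of which MEIS2 was lower in the 4 libraries (adjusted p = 0.013).

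Markers of other cell types also differed between the sets. The 6 astrocyte markers summed to 158 and 827 CPM in the GPR17 cells of E50_1 and E60_1 against 271 and 1620 CPM in precursors, the 10 neuronal markers to 992 and 399 CPM against 1615 and 589 CPM, and the 5 red cell markers to 772 and 7748 CPM against 773 and 45979 CPM. Each was higher in the precursors of E60_1, and the red cell sums of E50_1 were nearly equal. Microglial and endothelial markers went the other way in E60_1, with 371 and 146 CPM in GPR17 cells against 219 and 94.4 CPM in precursors, and stood at 38.0 and 17.1 CPM against 69.2 and 28.8 CPM in E50_1. The part of these markers in the calls was not tested. Without cells with at least 2 UMIs of microglial, vascular or fibroblast markers, or over 5% hemoglobin, 172 genes were higher and 98 lower. Astrocyte and neuronal markers did not enter that removal. Without marked doublets 206 genes were higher and 145 lower. GPR17 cells of E60 and E70 were not tested against each other, since only 1 E70 library held 5 or more of them.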

How the data were processed

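Dissociated cells or isolated nuclei of pig MEC were sequenced with 10x Genomics 3' chemistry (v2), and the authors mapped the reads to a pre-mRNA annotation of Sscrofa11.1 with Cell Ranger 2.20, per the labels. The deposited files hold raw UMI counts per gene and cell, filtered to cells by the authors, with depths given in the report. No other value was used. A total of 987 of 7482 Ensembl IDs were given a symbol from the reference annotation.

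UMIs were summed per library and cell set and tested with edgeR 4.0.16 in R 4.3.3 (TMM, filterByExpr, library as a block, Benjamini-Hochberg threshold 0.05). The SE of an edgeR log2 difference was its absolute size over the square root of the F statistic, so it was derived from the test and not estimated apart. DESeq2 1.42.0, other scalings, filters, thresholds, cell sets and library subsets served as alternatives. Levels are UMIs per 1000000 summed UMIs (CPM) and, with 3' tags, were not divided by length. Intervals of counts and ratios are exact at 95% and cover counting error only. Those of pooled ratios take each UMI as independent and leave out the spread between cells and between libraries. Shares were compared with exact permutation tests over libraries (scipy 1.17.1). Microglial cells had at least 5 UMIs of AIF1 and CSF1R, adult oligodendrocytes at least 3 of MBP and 1 of MAG or MOG. Doublets were scored with Scrublet (scanpy 1.11.5) at 0.8% per 1000 cells, kept in the main analysis and removed as an alternative. On simulated counts for the comparison with precursors in 2 libraries and 6873 genes, 9 of 86 genes changed 2-fold and 81 of 81 changed 8-fold were recovered, with 3 false calls, and in 4 libraries and 3900 genes 41 of 88 and 77 of 77, with 2 false calls.

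The cells, gene lists and alternatives were chosen with earlier results of these data known, and the 4-library comparison and the microglial cells after the data were seen. Genes named were the members of 5 lists (committed stage, myelin, transcription factors, precursor, GPR17 signalling), up to 4 members of the other lists with the highest pooled level in GPR17 cells, and the 12 called genes with the largest difference in each direction that moved alike in both libraries with a symbol and at least 50 CPM in the higher set. Others are said to be named after their values were seen, and some genes that fall under these rules are not reported here. The library block takes out the level of each library. The p-values of edgeR thus set a difference between cell sets against its spread across libraries and counting error, with information shared over genes. UMIs were summed per library and cell set, so the spread between cells of a library did not enter these p-values. The p-values of the share test measure the spread between libraries. Nothing says that libraries of a stage came from separate litters, so neither measures the spread between litters.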

Additional observations from a re-analysis of the deposited data

Results flagged for a closer look

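The GPR17 cells of the adult libraries were in no comparison. The adult nuclei held 4 GPR17 cells of 2552 (0.157%, exact 95% interval 0.0427 to 0.401), above the 0.118% that 3 cells make, the limit that a count of 0 allows. Of these, 2 were among the nuclei marked as likely doublets. Together the 4 nuclei gave 13 UMIs of GPR17, 23 of BCAS1, 42 of FYN, 8 of MBP, 12 of the late myelin gene OPALIN, 1 of PDGFRA and 0 of OLIG1. The adult whole-cell library held 1 such cell of 737 (0.136%), with 518 UMIs of MBP and 174 of MAG.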

How the results depend on the processing

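In E50_1 and E60_1 the 125 higher and 76 lower genes became 27 and 0 with DESeq2, 19 and 0 with RLE size factors, 0 and 0 without the library block (366 at an unadjusted p under 0.05), 230 higher without the filter on low counts, 26 and 12 with a GPR17 threshold of 2 UMIs, 228 and 204 with 5 UMIs, 314 and 245 against cells chosen by OLIG1, 51 and 30 with every cell thinned to 2000 UMIs, and 206 and 145 without marked doublets. Whole-cell libraries alone, cells without microglial, vascular, fibroblast or red cell markers and the 5-cell minimum stayed within 1.5 times. In the 4 libraries the 93 higher and 76 lower genes became 63 and 35 with DESeq2, 28 to 126 and 6 to 67 with 1 library left out, and 11 and 0 without E60_1 and E60_2 (297 at an unadjusted p under 0.05). These 4-library alternatives were chosen after seeing the data, and the cause of the changes was not tested. Of 329 values for 32 named genes under alternatives, 237 kept their side of the threshold and 0 changed direction, while 86 lost and 6 gained the call, 28 of the losses without the library block, 19 with DESeq2 and 18 with RLE size factors. MBP, CLDN11 and BCAS1 passed in 11 of 12 alternatives. The 237 and the 11 both include the whole-cell alternative, which was the main fit itself. The E70 minus E60 difference in share kept its sign and stayed uncalled, between -0.0943 and -0.773 percentage points with 1 library left out, -0.979 at 2 UMIs and -0.286 at 5 UMIs. With the replicate number as a replicate block the mean difference was -0.424 and its exact sign-flip p 0.75 (smallest possible 0.25), the pair differences being -1.40, -0.128 and 0.251; the labels do not say that a number marks a shared litter. A 20-cell minimum and leaving out a library of the 2-library comparison left 1 library and could not be fitted, and stages within GPR17 cells were not run. The number of cells limited the result in E60_3, E70_1, E70_2 and E70_nc, which held 0 to 4 GPR17 cells each.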
